A study of Rattus norvegicus with 24 samples.

Results

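Training alone was examined in the hippocampus of male Sprague-Dawley rats that had received vehicle, the hormone-free carrier. Of the 24 RNA-seq libraries of the series, 12 were from vehicle rats and were chosen by their labels, 5 labelled as trained and 7 as untrained. All 24 libraries are from snap-frozen, dissected hippocampus, and the other 12 (6 trained and 6 untrained) are from rats given corticosterone, the main glucocorticoid of the rat. The series concerns glucocorticoids and memory, and this contrast asks what training leaves in hippocampal RNA when no hormone is added. Neither the training task, the age of the rats, the dose nor the time between training and sampling is given in the labels. Samples are only numbered there, with no statement on which animal each is from, and the p-values thus reflect the variation among samples, part of which may be technical.

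The hippocampus is needed to form memories of places, objects and events. Learning drives bursts of neuronal firing there, which switch on a short-lived wave of immediate early genes, followed by slower changes in genes for synapses and signalling. Storage of a lasting memory depends on such new transcription and translation, and stress hormones released around learning are known to strengthen it. In whole hippocampus a change in a small set of active neurons is diluted by the RNA of all other cells, and fewer cells of a type and less RNA per cell cannot be told apart. The count table names genes by Ensembl identifier only. The reference table used here holds 0 Ensembl entries, so none (0) of the 32883 identifiers could be paired with a symbol. Immediate early genes, synaptic genes and cell type markers could therefore not be looked up, the tissue label could not be checked against markers, and no function or sequence is given for a gene.

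No measure of the library as a whole passed an exact permutation test between trained and untrained libraries at an adjusted p under 0.05. This alone does not show that the groups are alike. Total counts in genes ranged from 13760331 to 16239656 reads in the trained and from 13996453 to 16372332 reads in the untrained libraries. Reads from trained rats fell in 18181 ± 70.3 genes (SD, n = 5) and those from untrained rats in 18265 ± 109 genes (SD, n = 7), a difference of -84.5 genes that did not pass (p = 0.155 by a two-sided exact permutation test, and 0.884 adjusted over 7 measures). Without untrained library 17 this difference was -54.4 genes, and without untrained library 2 it was -113 genes (exact permutation p = 0.0368, adjusted p = 0.258). Genes detected were not adjusted for total counts, whose trained minus untrained difference was -614180 reads, and -844557 reads without untrained library 2. Each of the 7 measures, which were the total, 3 shares of reads, the number of genes detected and 2 principal components, had an adjusted p of 0.884 in this test, whose smallest possible p is 0.00126.

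The first principal component of the 12 libraries carried 24.5% of the variance of log2 CPM (read counts per 1000000 reads of the scaled library size). On it, 1 library of each group stood apart. Untrained library 17 lay at -40.1 and trained library 5 at -30.4, while the other 10 lay between -3.49 and 12.5. The gene with the largest loading on this component was at 3064 CPM and 1748 CPM in those libraries and between 6.18 CPM and 271 CPM in the others, and over the corticosterone libraries it ranged from 5.70 to 4674 CPM. The second component, with 14.5% of the variance, set apart untrained library 32 at 31.1 and trained library 20 at 23.5, against -14.8 to 2.68 in the rest. Its leading gene was at 11.2 CPM and 6.88 CPM in those libraries and at 0.285 CPM or less elsewhere. Both components thus separated 1 library from each group, not the groups.

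**Figure D1:**
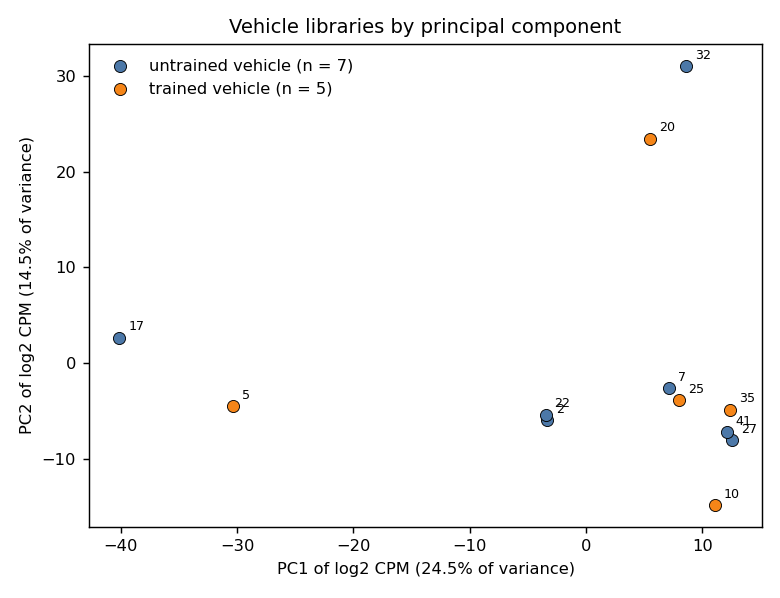
The first (x axis) and second (y axis) principal component of log2 CPM are plotted for the 12 vehicle libraries, labelled by sample number, with trained rats in orange and untrained rats in blue. The groups intermix, and libraries 17 and 5 on the first component and 32 and 20 on the second stand apart from the rest.

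Pairs of libraries were about as far apart within a group as between groups. The root mean square difference in log2 CPM over the genes tested had a median of 0.403 among 21 untrained pairs, 0.418 among 10 trained pairs and 0.387 among 35 pairs of 1 trained and 1 untrained library. The nearest library of a trained library was another trained one in 1 of 5 cases, and that of an untrained library was untrained in 3 of 7. Untrained library 41, whose column stands after those of the trained vehicle samples in the count table, had trained library 25 as its nearest, and it was kept in the group its title gives. Spread within groups was also close: over 13766 genes at 1 CPM or more, the median SD of log2 CPM was 0.118 in trained and 0.121 in untrained rats, and it was larger in trained rats for 48.6% of genes.

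No gene passed the test for training under vehicle. With edgeR's quasi-likelihood test on all 24 libraries, 0 of 14838 genes had an adjusted p under 0.05 (0%), and the smallest adjusted p was 0.328. At an unadjusted p under 0.05 there were 338 genes (2.28%), 185 higher (1.25%) and 153 lower (1.03%) in trained rats, where uniform p-values would give 742. DESeq2 and limma-voom also called 0 genes, with 270 and 321 at an unadjusted p under 0.05. Without trained library 10 there were 545 such genes and still 0 called, and without untrained library 41 there were 380 and 0.

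The fitted changes were small. The median absolute log2 fold change was 0.049 over all genes tested, with a median signed change of -0.0001. Of 13795 genes that averaged 1 CPM or more over the 24 libraries, 86.4% differed by less than 1.1-fold and 97.7% by less than 1.25-fold, with 116 higher and 206 lower at that size or beyond. At 1.5-fold or more there were 54 of these genes, 19 higher and 35 lower, and at 2-fold or more 12, 5 higher and 7 lower. Under corticosterone, in libraries that the vehicle contrast does not use, the fitted training effect reached 1.5-fold for 132 genes and 2-fold for 22.

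**Figure D2:**
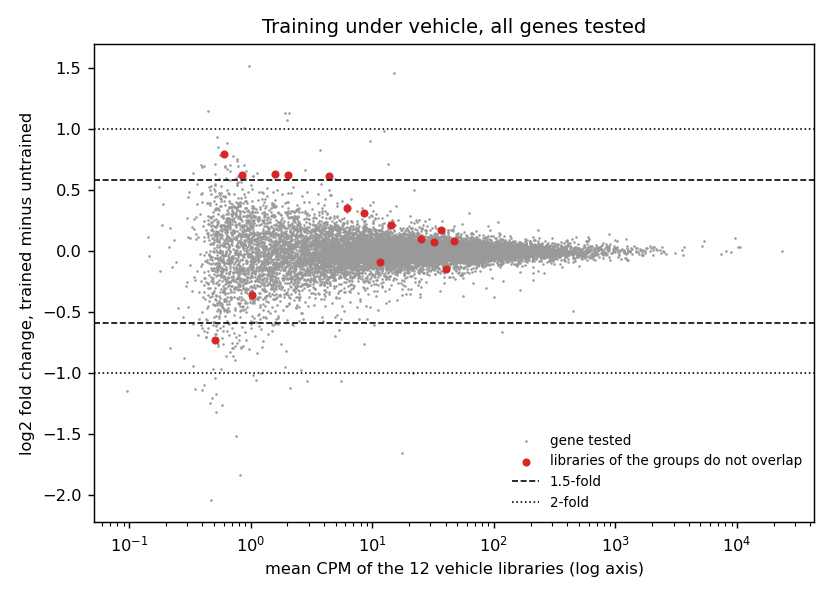
Each point is a gene, with its mean level in the 12 vehicle libraries on a log axis (x, in CPM) and its log2 fold change of trained against untrained vehicle rats (y). The scatter narrows around 0 as the level rises, and the 16 genes whose groups do not overlap, in red, lie at levels below 50 CPM.

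ENSRNOG00000008642 had the smallest p of all genes. It was at 37.5, 38.5, 39.3, 40.3 and 40.8 CPM in the 5 trained libraries, and its 7 untrained libraries ranged from 33.6 to 36.2 CPM with a median of 34.5 CPM. The lowest trained library thus lay above the highest untrained one, from raw counts of 494 to 638 reads. The change was 1.13-fold (log2 fold change 0.18, SE 0.03, 95% interval 0.11 to 0.25, edgeR adjusted p = 0.328), so that a difference above 1.19-fold was outside the interval. In corticosterone rats its level was 35.7 ± 1.43 CPM without and 36.5 ± 0.864 CPM with training (SD, n = 6 each), and those groups overlapped.

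ENSRNOG00000055221 was the next among genes that were higher in trained rats and averaged 1 CPM or more over the 24 libraries. Its trained libraries were at 2.21, 2.40, 2.40, 2.71 and 2.97 CPM, and its untrained libraries ranged from 1.23 to 2.06 CPM with a median of 1.71 CPM. The groups did not overlap, but the values rest on 19 to 44 reads per library. The log2 fold change was 0.62 (SE 0.16, 95% interval 0.29 to 0.95, edgeR adjusted p = 0.9999). Among corticosterone rats the order was turned, with 2.35 ± 0.491 CPM in untrained and 2.03 ± 0.249 CPM in trained rats (SD, n = 6 each, log2 fold change -0.21, SE 0.16, edgeR adjusted p = 0.856).

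ENSRNOG00000004614 had the smallest p among genes that were lower in trained rats and averaged 1 CPM or more over the 24 libraries. It was at 4.64, 4.65, 4.92, 5.18 and 5.74 CPM in the trained libraries and ranged from 5.58 to 7.13 CPM, with a median of 6.38 CPM, in the untrained ones. The groups overlapped only through the highest trained and the lowest untrained library. Its log2 fold change was -0.34 (SE 0.09, 95% interval -0.51 to -0.16, edgeR adjusted p = 0.9999). Under corticosterone it was higher with training, at 6.08 ± 0.572 CPM against 4.99 ± 0.382 CPM (SD, n = 6 each, log2 fold change 0.28, SE 0.08, edgeR adjusted p = 0.812). The difference between the 2 training effects, 0.62 on the log2 scale (SE 0.12), had the smallest p of all genes for the interaction and did not pass (edgeR adjusted p = 0.378).

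ENSRNOG00000057666 followed, with 3.42, 3.48, 3.70, 3.89 and 4.68 CPM in the trained libraries. The untrained libraries ranged from 3.76 to 5.21 CPM with a median of 4.94 CPM, and 6 of the 7 lay above every trained library. The log2 fold change was -0.33 (SE 0.09, 95% interval -0.53 to -0.13, edgeR adjusted p = 0.9999), and -0.20 without the 4 libraries that stood apart on the principal components (unadjusted p = 0.124 by edgeR). In corticosterone rats it was at 4.401 ± 0.449 CPM without and 4.599 ± 0.113 CPM with training (SD, n = 6 each). These 4 genes were picked for their p under vehicle, so their vehicle values describe the choice, and none of them passed in either treatment.

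**Figure D3:**
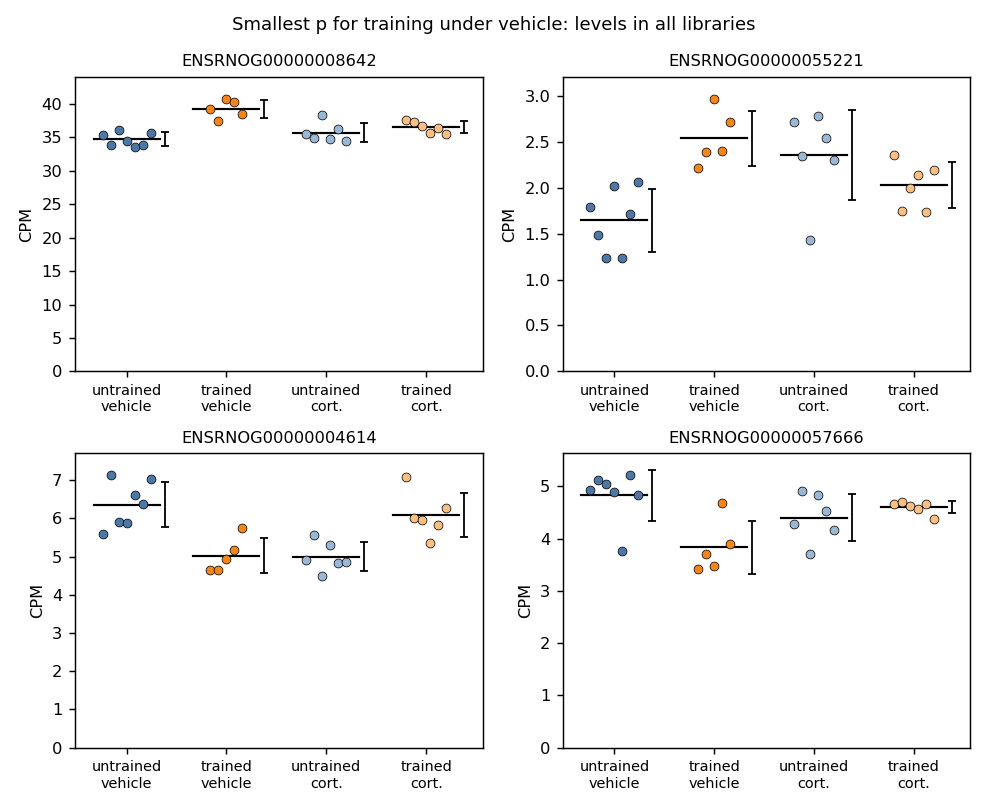
Levels in CPM (y axis, from 0) of the 4 genes are shown for every library in the 4 groups (x axis), with the mean as a line and the SD as a bar beside it. The trained vehicle libraries of ENSRNOG00000008642 and ENSRNOG00000055221 lie above all untrained vehicle libraries, and the corticosterone groups of both genes overlap.

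The 12 higher and 12 lower genes of smallest p that averaged 1 CPM or more over all libraries were also described as a group by rank. The higher ones had a median log2 fold change of 0.29, with values from 0.14 to 0.83, and 5 of the 12 had groups that did not overlap. The lower ones had a median of -0.38, with absolute values from 0.11 to 1.65, and 0 of 12 were free of overlap. In all, 9 of the higher and 9 of the lower genes differed by less than 1.5-fold. The most abundant of the 24, the 7th of the lower genes, was at 191 ± 17.5 CPM in trained (SD, n = 5) and 225 ± 10.03 CPM in untrained rats (SD, n = 7), a log2 difference of -0.24 (SE 0.08, adjusted p = 0.9999 by edgeR).

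The 5th of the lower genes had the largest fitted change of these 24 and an uneven pattern over libraries. It was at 7.11, 7.49, 7.67, 7.96 and 8.91 CPM in the 5 trained libraries. Of the 7 untrained libraries, 3 were at 7.16, 8.02 and 8.04 CPM and 4 at 31.5, 37.4, 37.5 and 42.7 CPM. Over all 24 libraries 12 were between 7.11 and 9.93 CPM, 11 between 31.5 and 43.1 CPM and 1 at 16.1 CPM, so that the levels formed 2 separate ranges. The higher range held 4 of 6 untrained and 3 of 6 trained corticosterone libraries. The gene's log2 fold change was -1.65 (SE 0.54, 95% interval -2.76 to -0.54, edgeR adjusted p = 0.9999). This change therefore came from the 4 untrained libraries in the higher range. Its unadjusted p was 0.0059 by edgeR, 0.0019 by DESeq2 and 0.087 by limma-voom.

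For most genes the data set a narrow bound on what training could have changed. A 95% interval from the fit was used for each gene, and its farther end from 0 is the largest change that the interval allows. That bound was 1.17-fold for the median gene and 1.70-fold at the 90th percentile, in either direction. An equivalence test (2 one-sided tests per gene, Benjamini-Hochberg adjusted over all genes) called a change of 1.5-fold or more excluded for 12790 genes (86.2%) and a change of 2-fold or more for 14291 (96.3%). Without the 4 libraries that stood apart on the principal components these counts were 11977 of 15020 and 13830 of 15020 genes, with 0 genes called as changed.

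These bounds were narrower for more abundant genes. Among the 2183 genes at 100 CPM or more, which held 69.3% of the reads, the median bound was 1.09-fold, and 99.6% had intervals inside 1.5-fold. For 7545 genes between 10 and 100 CPM the median bound was 1.13-fold and 98.0% lay inside 1.5-fold. Between 1 and 10 CPM (4038 genes) the median bound was 1.37-fold, with 69.5% inside 1.5-fold and 92.7% inside 2-fold. Below 1 CPM (1072 genes) it was 1.90-fold, with 4.20% inside 1.5-fold and 57.9% inside 2-fold. In the 100 most abundant genes the log2 fold changes ran from -0.07 to 0.11, and 99 of the 100 had intervals inside 1.25-fold.

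**Figure D4:**
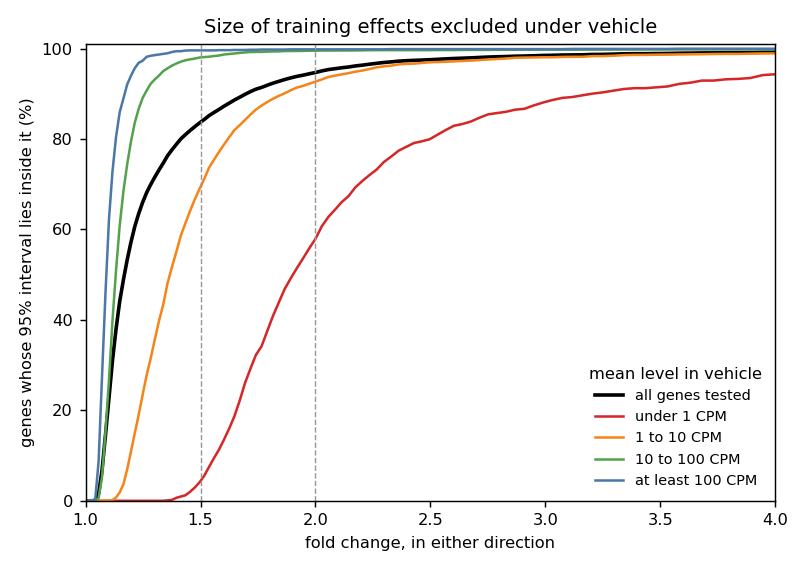
The share of genes (y axis, in percent) whose 95% interval for training under vehicle lies inside a given fold change in either direction (x axis) is drawn for all genes and for 4 classes of mean level. At 1.5-fold the share is 83.7% of all genes, 99.6% of those at 100 CPM or more and 4.20% of those below 1 CPM.

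The 95% interval reached a 2-fold change for 787 genes, 240 of which still passed the less strict one-sided equivalence test at 2-fold. These genes had a median level of 0.820 CPM against 23.6 CPM for the other 14051, and 57.3% of them were below 1 CPM. They also varied more within groups, with a median SD of log2 CPM of 0.667 in untrained and 0.658 in trained rats against 0.123 and 0.120 for the others. Only 40 of them were at 10 CPM or more. The widest interval among those 40 belonged to the gene that leads the first principal component, with a log2 fold change of -0.49 (SE 1.65, 95% interval -3.90 to 2.91, edgeR adjusted p = 0.9999). The 787 genes held 0.280% of the reads.

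Genes whose trained and untrained vehicle libraries did not overlap were few. Trained libraries were all higher for 12 genes (0.0809%) and all lower for 4 (0.027%), 16 in all (0.108%), and under corticosterone 19 genes (0.128%) had groups without overlap. If the vehicle libraries were exchangeable, each direction would have a probability of 0.00126 per gene (792 splits into 5 and 7). The shares found under vehicle were thus no larger than exchangeable libraries would give. The 12 higher genes had a median level of 7.35 CPM and a largest change of 1.74-fold, and the 4 lower genes had a median level of 6.26 CPM and a largest change of 1.66-fold. In corticosterone libraries 6 of the 12 and 1 of the 4 had the same sign, and 0 of the 16 were free of overlap there in the same direction.

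Genes read in every library of one group and in none of the other were at a few reads only. At least 1 read in all 5 trained libraries and 0 in all 7 untrained ones was found for 1 gene, with at most 3 reads in a library, and the opposite pattern for 1 gene, with at most 4 reads. Neither passed the filter on low counts. A count of 0 over the untrained group allows a level of up to 0.0279 CPM and over the trained group up to 0.0406 CPM (3 counts of the group's total, for counting error only). The gene with the most reads among those absent from untrained libraries had 28 reads, all in 1 library, and the one among those absent from trained libraries had 108 reads in 2 libraries.

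The corticosterone libraries gave a second view of training, since the 2 contrasts share no library, although gene dispersions were estimated from all 24. Training under corticosterone called 0 of 14838 genes (0% by edgeR, where the lowest adjusted p was 0.812), with 903 passing an unadjusted p under 0.05 (6.09%), 538 higher (3.63%) and 365 lower (2.46%) in trained rats. The interaction called 0 (0%, lowest adjusted p = 0.378 by edgeR). An unadjusted p under 0.05 for it was found for 634 genes (4.27%), with the training effect higher under corticosterone for 367 (2.47%) and lower for 267 (1.8%). DESeq2 and limma-voom called 0 in both as well, with 860 and 858 genes at an unadjusted p under 0.05 for training under corticosterone and 580 and 655 for the interaction. Of the 24 genes ranked under vehicle, 7 of the 12 higher and 5 of the 12 lower had the same sign under corticosterone. Their median log2 fold change there was 0.02 for the higher and 0.05 for the lower genes. An unadjusted p under 0.05 was reached by 1 of the 24 under corticosterone, ENSRNOG00000004614 in the opposite direction.

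**Figure D5:**
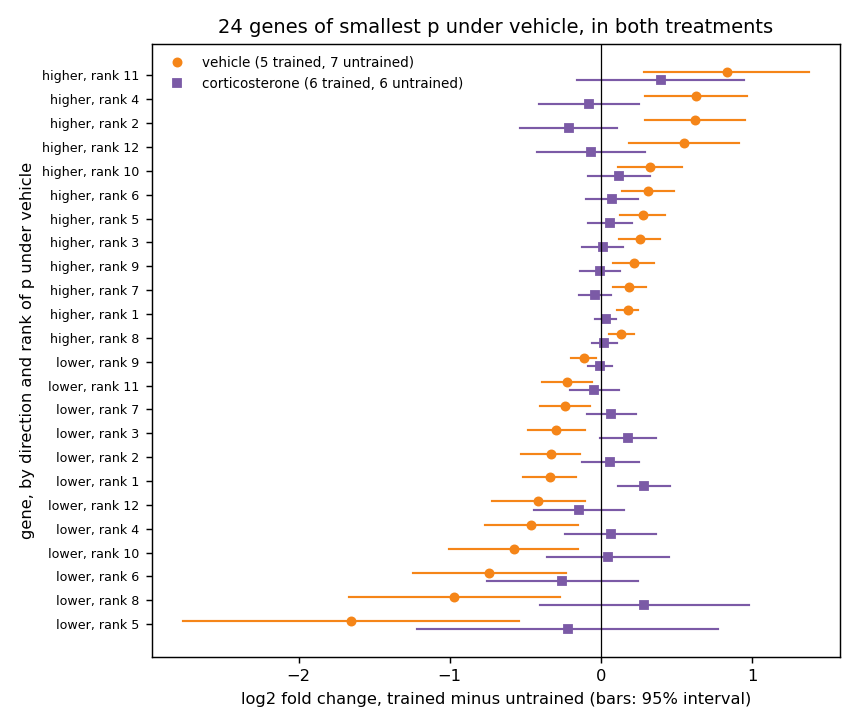
The log2 fold change of trained against untrained rats (x axis) with its 95% interval is drawn under vehicle (orange) and corticosterone (purple) for the 24 genes ranked by p under vehicle (y axis). The vehicle values were the basis of the choice; the corticosterone values lie between -0.25 and 0.40, with 12 of 24 on the same side.

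The wider set of 338 genes at an unadjusted p under 0.05 in vehicle rats behaved likewise. The same sign under corticosterone was found for 166 of them (49.1%), against 46.5% of all genes tested, and the median change in the vehicle direction went from 0.21 to -0.0045 on the log2 scale. An unadjusted p under 0.05 in both treatments was found for 7 genes with the same sign and 13 with opposite signs. Across all 14838 genes the 2 training effects were correlated at -0.040 (Pearson) and -0.092 (Spearman), as a description only, since genes are not independent replicates.

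Genes that responded to corticosterone were also bounded for training alone. These comparisons share vehicle libraries with the training contrast, so their values are only set side by side. Of the 53 genes called for corticosterone in untrained rats (0.357% of genes), with a median absolute log2 fold change of 0.49, 0 were called for training under vehicle and 2 had an unadjusted p under 0.05, which 2.28% of all genes did. Their median absolute training change was 0.07, where that of all genes was 0.049. The 95% interval for training lay inside 1.5-fold for 47 of the 53, and for 83.7% of all genes. Of the 24 genes called in trained rats (0.162%), 0 had an unadjusted p under 0.05 for training, 22 had intervals inside 1.5-fold and 24 inside 2-fold, where 83.7% and 94.7% of all genes did.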

How the data were processed

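Raw read counts were deposited by the authors in 1 table, with whole numbers for 32883 Ensembl identifiers in 24 samples. Its 5 summary rows entered no library size or test; reads in genes were 60.1% to 62.6% of all counts in the vehicle libraries. The tools that the submitters' processing notes name are STAR 2.7.0b, HTSeq 0.6.1, FastQC and MultiQC, with build rn6. Per the labels' protocols, mRNA was enriched and stranded paired-end libraries were made. Neither annotation release nor strand setting is given in the sources used here. For that reason overlapping, antisense and near-identical genes are uncertain. Samples were placed by title. No pair of libraries in a group was as close as sampling noise (smallest chi-square per degree of freedom 4.09).

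Genes were filtered with filterByExpr by group (14838 left), scaled by TMM and tested with edgeR 4.0.16 in R 4.3.3, with 4 group means of all 24 libraries in 1 model (glmQLFit, glmQLFTest) and Benjamini-Hochberg adjustment. Standard errors are Wald errors, with 95% intervals from the degrees of freedom of the quasi-likelihood fit. CPM are the counts per 1000000 reads of the TMM-adjusted library size. Principal components used a prior count of 2. The named genes were to be the 12 higher and 12 lower genes of smallest p at 1 CPM or more, a fixed set of symbols and members of 13 gene lists and 16 marker lists. The reference table (47357 genes, assembly GRCr8) holds 0 Ensembl entries, so none of the identifiers could be matched to it. The symbols and lists were therefore not used, 2 identifiers per direction are printed and other genes are given by rank. The members, lists and tests were chosen with earlier results of these data known. Scripts were tested on simulated data. Alternatives were RLE and upper-quartile factors, other filters, DESeq2 1.42.0, limma-voom 3.58.1, only the groups compared, 1 surrogate variable (sva 3.50.0), runs of 5 sample numbers as a block and leaving out each library.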

Additional observations from a re-analysis of the deposited data

Results flagged for a closer look

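The libraries below stood apart from their group by Dixon's test at 95%, which sets the distance of the extreme value from its neighbour against the whole range. The 30 sets tested were 7 library measures in the 2 vehicle groups and 4 genes in the 4 groups. Chance marks about 1 in 20 sets of normally distributed values. The principal components were fitted to these same libraries, so that rate need not hold for them. On the first principal component untrained vehicle library 17 lay at -40.1, with its nearest neighbour at -3.49, and trained vehicle library 5 at -30.4, with its nearest at 5.49. On the second component untrained vehicle library 32 lay at 31.1, with its nearest at 2.68, and trained vehicle library 20 at 23.5, with its nearest at -3.87. Without libraries 17 and 5 training called 0 genes (edgeR, 316 at an unadjusted p under 0.05), and without 32 and 20 it called 0 (336).

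ENSRNOG00000055221 was at 1.43 CPM in untrained corticosterone library 14, below the next at 2.30 CPM. ENSRNOG00000057666 was at 3.76 CPM in untrained vehicle library 27, below the next at 4.83 CPM.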

How the results depend on the processing

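Training under vehicle called 0 genes in each of 24 alternatives, with a smallest adjusted p between 0.232 and 0.99999 and between 270 and 585 genes at an unadjusted p under 0.05 (the 585 are of 23189 genes without a filter on low counts). The number of genes with a 1.5-fold change excluded ranged from 11977 (79.7%, without all 4 libraries that stood apart) to 12971 (87.4%, with 1 surrogate variable). With a 2-fold change excluded it ranged from 13550 (98.2% of 13796 genes, filter of 1 CPM) to 14444 (62.3% of 23189 genes, no filter). The alternatives tested different numbers of genes, so the order of these counts is not that of the shares. Without a filter on low counts, a 1.5-fold change was excluded for 12453 genes (53.7%). Training under corticosterone called 0 in 9 alternatives and the interaction 0 in 23. The 24 ranked genes kept their sign in each of 576 refits, none of which called one. The log2 fold change ranged from 0.16 to 0.19 for ENSRNOG00000008642 (adjusted p from 0.232 to 0.99999), from 0.54 to 0.68 for ENSRNOG00000055221, from -0.39 to -0.31 for ENSRNOG00000004614 and from -0.42 to -0.20 for ENSRNOG00000057666, the last without all 4 libraries that stood apart. The alternatives without libraries 17 and 5, without 32 and 20 and without all 4 were chosen after seeing the data.

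Over fits that left out 1 vehicle library, the trained minus untrained difference changed sign for 4 of 7 library measures, none of which passed. For genes detected it ranged from -113 to -54.4. It ranged from -0.230 to 0.353 percentage points for reads in genes, from -0.197 to 0.00724 for reads in no gene, from -4.27 to 10.2 for the first and from -7.64 to 3.52 for the second principal component. The groups share no replicate numbers, and the labels do not say that neighbouring sample numbers belong together. A fit with each run of 5 sample numbers as a block, in which each of the 5 trained vehicle libraries shares a run with an untrained one, called 0 genes (397 at an unadjusted p under 0.05). The covariate of choroid plexus markers was not run because the identifiers could not be paired with symbols. Low counts limit the bounds below 1 CPM.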

Other observations

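Among genes that averaged 1 CPM or more over all 24 libraries, the 10 largest fitted changes for training under vehicle, 5 higher and 5 lower, had absolute log2 fold changes from 1.06 to 2.04. For 10 of the 10, the SD in at least 1 group was more than 0.5 of the mean. The 4th of them, fitted at 1.46 on the log2 scale (SE 0.71, adjusted p = 0.9999 by edgeR), was at 83.8 CPM in 1 trained library, with a median of 8.85 CPM over the 5 trained and 8.63 CPM over the 7 untrained libraries.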
